A study of Mus musculus with 21 samples.

Results

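Mouse embryonic fibroblasts (MEF) were set against the earliest sampled cells of chemical reprogramming, at day 12 and day 16, to see what had been gained or lost by day 12 and which fibroblast functions were still there. The comparison took 5 of the 21 libraries of the series: 2 of MEF, 1 of day 12 and 2 of day 16. They were chosen by their labels, and no measured value entered the choice. The MEF came from E13.5 embryos. The intermediate cells are MEF taken 12 and 16 days into chemical reprogramming, in which small molecules stand in for introduced transcription factors. Those molecules and their doses are not given in the sources used here. All 5 libraries carry the strain C57BL/6J-Tg(GOFGFP)11Imeg/RbrcxICR, and no gene was deleted or introduced in 1 group alone according to the labels. The day 12 and day 16 cells are whole cultures as far as the labels say, and the labels do not state whether replicates were separate cultures. The spread behind the adjusted p-values may therefore be technical. It was taken within the groups of all 21 libraries, so other cell types of the series also set it. In whole-culture RNA, fewer cells of a type and less RNA per cell cannot be told apart.

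Fibroblasts build connective tissue. They secrete fibrillar collagens, fibronectin and elastic fibres, cross-link and remodel them with lysyl oxidases and metalloproteinases, and pull on them through actin stress fibres whose genes are driven by serum response factor. Their identity rests on mesenchymal transcription factors such as Twist and Prrx proteins and is read from surface proteins such as Thy1 and the PDGF receptors. The cells that chemical reprogramming passes through resemble extraembryonic endoderm (XEN), the lineage that forms the yolk sac. XEN cells hold GATA and SOX endoderm factors and simple keratins, and secrete the laminin and collagen IV of basement membrane.

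Expression was read as FPKM, the fragments of a gene scaled to its length and to the size of the library. Of 43436 gene identifiers present in every file, 14182 passed the filter on low values (2 or more of the 5 libraries at 1 FPKM or above) and were tested. A change is the difference of log2(FPKM + 1), early minus MEF, ± the SE of the fit, which understates the change of genes with low FPKM. A gene rose or fell where limma's adjusted p was below 0.05 and the change was at least 1. Values of 0 mean that a gene is listed at 0. The early libraries are day 12 and day 16 together. Day 12 against MEF is a comparison of a lone library, whose spread was assumed to be that of the other groups.

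The sum of FPKM was 586715 and 543198 in MEF replicates 1 and 2 and 635188 to 746984 in the early libraries, and 12252 to 13982 genes had an FPKM of at least 1. Depth relative to MEF replicate 1, read from genes with 1 fragment, was 0.88 to 0.964 in the other 4 libraries. Mitochondrial transcripts took 2.1% and 2.31% of the FPKM in MEF and 3.33% to 4.44% in the early libraries. Across the 14182 genes, which are not independent replicates, log2(FPKM + 1) correlated at r = 0.925 between the MEF libraries, 0.921 between the day 16 libraries, and 0.937 and 0.922 between day 12 and day 16 replicates 1 and 2. MEF replicates differed widely in some fibroblast genes, such as Eln at 2.61 and 160.6 FPKM. Xist, transcribed from the inactive X chromosome, was at 0.00358 and 4.2 FPKM in MEF, 2.68 at day 12 and 4.15 and 22.7 at day 16. The files of day 12 and day 16 replicate 1 mark 446 loci with a low-data status, and the files of both MEF libraries and of day 16 replicate 2 mark 0. Day 12 has no library without this status, so the status can be fitted apart from day 12 only through the day 16 libraries. With it as a covariate 798 genes rose and 148 fell at day 12, where the fit without it called 2054 and 587.

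Gains outnumbered losses. In the early libraries 2461 genes rose (17.4% of those tested) and 1097 fell (7.74%) against MEF. At day 12 alone 2054 genes rose (14.5%) and 587 fell (4.14%). Between day 12 and day 16, 19 genes rose (0.134%) and 185 fell (1.30%). All 3 early libraries were above both MEF libraries for 5226 genes (36.8%) and below both for 2148 (15.1%). The balance of gains and losses depends on scaling. The median gene moved by 0.27 in the FPKM as deposited and by -0.01 after median-of-ratios scaling, which gave 1770 genes higher and 1633 lower, while quantile normalization gave 1728 and 1697. At day 12 the same scalings gave 1505 higher with 995 lower, and 1402 higher with 1212 lower. A fit on the 5 libraries alone called 1517 genes higher and 602 lower in the early libraries and 392 and 41 at day 12.

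The losses and the gains fell into different lists of genes. All 15 collagens tested, 19 of 24 contractile genes and 22 of 32 fibroblast surface proteins fell, and 21 of 25 XEN factors and 34 of 38 epithelial genes rose. Defining markers of both labels were present. In MEF, Thy1, Col1a1, Col1a2, Col3a1, Pdgfrb, Twist1, Prrx1, Postn and Dcn were between 16.7 and 4659 FPKM in each library. In the early libraries the XEN markers Gata4, Gata6, Sox17, Sox7, Foxa2 and Lama1 were between 16.3 and 599.5 FPKM in each library. The pluripotency factors Pou5f1 and Nanog did not pass the filter on low values and were at most 0.546 FPKM in any of the 5 libraries. Zfp42 did not pass it either and was at most 1.005 FPKM. Esrrb, also a pluripotency factor, rose (2.22 ± 0.53 (adjusted p = 0.00421)). It was at 0.0959 and 0 FPKM in MEF, 3.80 at day 12, and 11.8 and 0.898 at day 16.

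**Figure D1:**
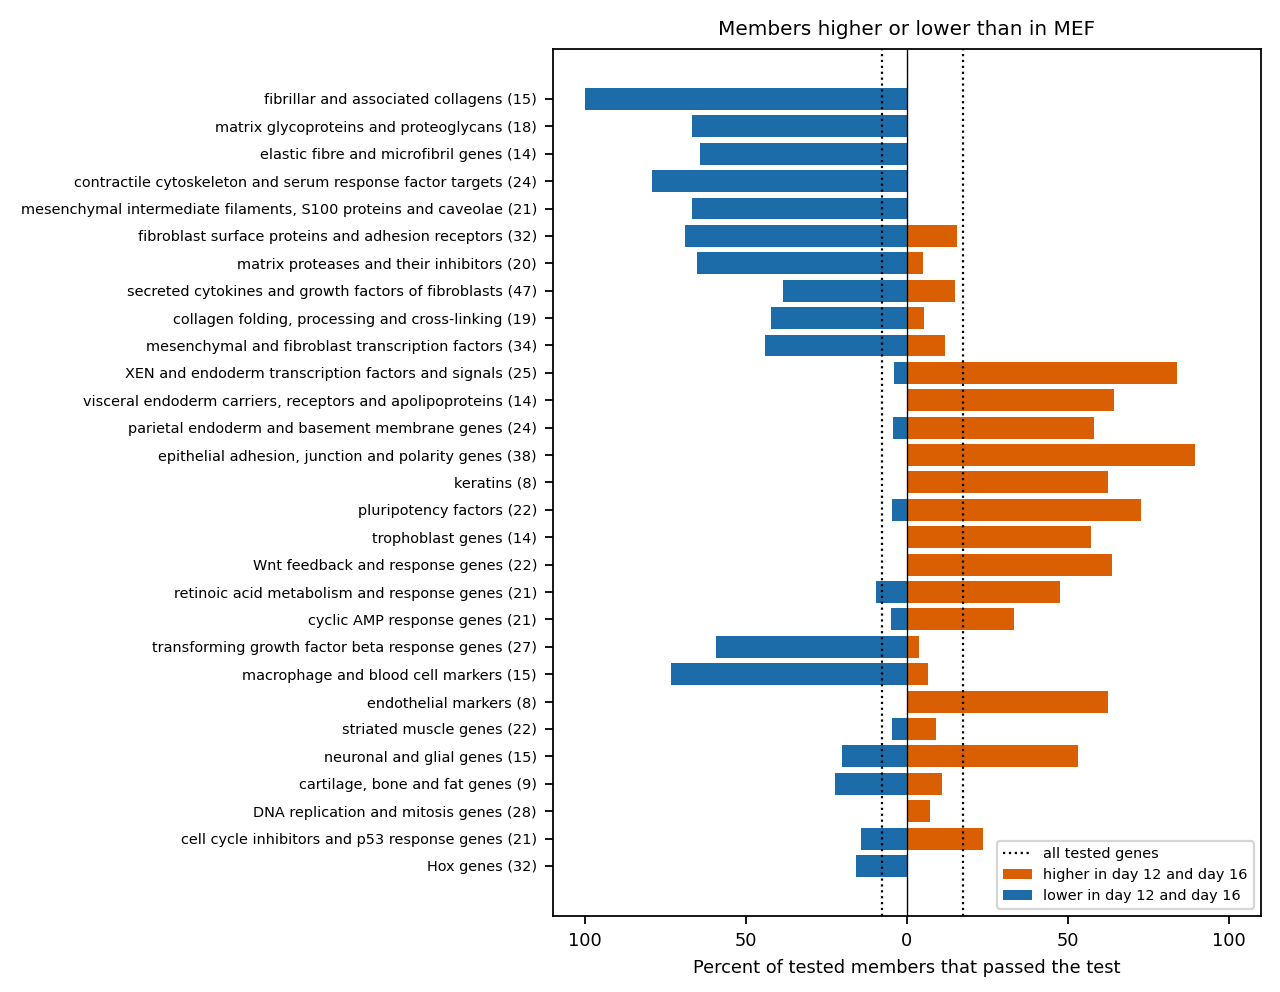
Percent of the tested members of each gene list (number of tested members in brackets) that rose (orange, to the right) or fell (blue, to the left) in the day 12 and day 16 libraries against MEF. Dotted lines mark the shares over all 14182 tested genes, 17.4% higher and 7.74% lower. The fibroblast lists at the top lie to the left and the XEN and epithelial lists to the right.

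Collagen was the fibroblast list with the lowest level left at day 12, a median of 8.81% of the MEF mean. Each of the 15 fibrillar and associated collagens fell in the early libraries, by a median of 3.55 on the log2 scale, and each was below both MEF libraries in all 3. Col1a1 (ENSMUSG00000001506, mm10 chromosome 11, positions 94936224 to 94953042), the main chain of type I collagen, was at 1467 and 4659 FPKM in MEF, 133 at day 12, and 25.8 and 91.2 at day 16. Every early library lay far below the lower MEF library, and the change was -5.24 ± 1.07 (adjusted p = 0.00138). Its partner chain Col1a2 was at 693 and 2984 FPKM in MEF, 104 at day 12, and 22.9 and 44.8 at day 16, a change of -4.88 ± 1.11 (adjusted p = 0.00304). Type V collagen, which starts fibrils, fell with it: Col5a1 by 4.59 ± 0.56 (adjusted p = 1.55e-05) and Col5a2 by 4.82 ± 0.80 (adjusted p = 0.000249). Col3a1, the reticular collagen of loose tissue, was at 129.7 and 1562 FPKM in MEF, 80.5 at day 12, and 16.9 and 38.2 at day 16, and its change of -3.55 ± 1.14 (adjusted p = 0.0236) had the largest adjusted p of the 15. At day 12 no collagen kept more than 31.6% of its MEF mean, 12 of 15 kept less than 10%, and the summed FPKM of the list was 521 against 3538 and 12390 in MEF. At day 12 taken alone 10 of the 15 fell, 5 without MEF replicate 2, 3 in the fit on the 5 libraries and 1 with the difference between files as a covariate. Col1a2 no longer passed without MEF replicate 2 (-3.83, adjusted p = 0.0556). Col3a1 no longer passed without MEF replicate 2 (-1.76, adjusted p = 0.34) or day 16 replicate 1 (-3.00, adjusted p = 0.0858).

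Proteins that organise the fibrils went down with them. Of 20 listed matrix glycoproteins and proteoglycans 18 were tested, 12 fell and 0 rose in the early libraries. Bgn, a small leucine-rich proteoglycan on collagen fibrils, was at 1084 and 2513 FPKM in MEF, 36.9 at day 12, and 12.5 and 18.1 at day 16, a change of -6.27 ± 0.94 (adjusted p = 0.000112). Postn, a matricellular protein of stressed tissue, was at 107 and 648 FPKM in MEF, 6.04 at day 12, and 1.25 and 2.89 at day 16, a change of -6.07 ± 0.76 (adjusted p = 2.03e-05). Fibronectin, the scaffold that cells assemble before collagen, fell too: Fn1 was at 1037 and 1538 FPKM in MEF, 123 at day 12, and 71.8 and 87.1 at day 16, a change of -3.77 ± 0.41 (adjusted p = 5.85e-06). In all 3 genes every early library lay below both MEF libraries. Thrombospondin 1 and tenascin C, matrix proteins that modulate adhesion, fell by 4.39 ± 0.88 (adjusted p = 0.0012) and 3.92 ± 0.77 (adjusted p = 0.000968). Lox, a lysyl oxidase that cross-links collagen and elastin, was at 585 and 612 FPKM in MEF, 10.8 at day 12, and 3.0 and 6.05 at day 16. The MEF replicates were close together and each early library lay far below them, a change of -6.43 ± 1.04 (adjusted p = 0.000212). Its relatives Loxl1 and Loxl3 fell by 3.31 ± 0.48 (adjusted p = 8.27e-05) and 3.57 ± 0.42 (adjusted p = 1.29e-05), whereas Loxl2 was at 136 and 132 FPKM in MEF, 86.2 at day 12, and 80.8 and 56.6 at day 16 and did not pass the test.

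Elastic fibre genes such as Eln were far apart between the MEF replicates. 9 of 14 fell and 0 rose. Mfap4, a microfibril-associated protein, was at 29.5 and 98.9 FPKM in MEF, 0.37 at day 12, and 0.0927 and 0.44 at day 16, a change of -5.42 ± 0.37 (adjusted p = 3.63e-08). The fibrillins Fbn1 and Fbn2, the backbone of microfibrils, fell by 3.60 ± 0.54 (adjusted p = 0.000104) and 4.44 ± 0.55 (adjusted p = 1.99e-05). Fbn2 was under 1 FPKM in all 3 early libraries. Eln, elastin itself, was at 2.61 and 161 FPKM in MEF, 0.475 at day 12, and 0.0295 and 0.19 at day 16, and all early values were below the lower MEF value. Efemp1, Ltbp1 and Mfap5, which also belong to this matrix, did not pass the test: Efemp1 was at 20.0 and 8.17 FPKM in MEF, 31 at day 12, and 32.1 and 14.3 at day 16 and Mfap5 at 22 and 41.3 FPKM in MEF, 30.6 at day 12, and 15.1 and 5.81 at day 16, within or above the MEF range at day 12.

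**Figure D2:**
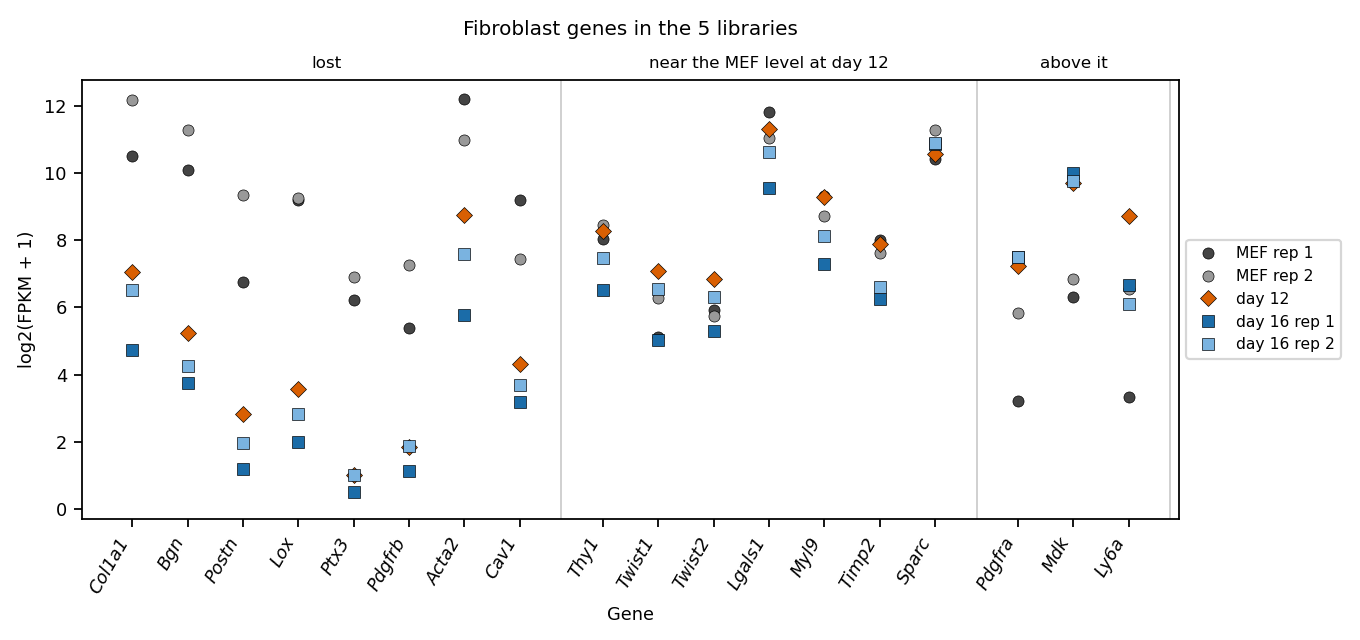
log2(FPKM + 1) of fibroblast genes in each of the 5 libraries (grey circles MEF, orange diamond day 12, blue squares day 16). In the left block every early library lies below both MEF libraries, from Col1a1 to Cav1. In the middle block day 12 lies inside or close to the MEF range, as for Thy1 at 310 FPKM, except in Twist1 and Twist2, where it lies above. In the right block the early libraries lie above the MEF range for Pdgfra and Mdk.

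Contractile genes fell nearly as a block. The median member kept 32.0% of its MEF mean at day 12 and 13.0% and 19.1% in the day 16 libraries. 19 of 24 fell in the early libraries and 0 rose, and 19 members were below both MEF libraries in all 3. At day 12 alone 9 fell, 5 without MEF replicate 1, and 0 in the fit on the 5 libraries or with the difference between files as a covariate. Acta2 (ENSMUSG00000035783, mm10 chromosome 19, positions 34241090 to 34255336), smooth muscle actin of stress fibres, was at 4713 and 2015 FPKM in MEF, 428 at day 12, and 54.1 and 191 at day 16, a change of -4.22 ± 0.84 (adjusted p = 0.00111). Tagln, an actin cross-linker of the same fibres, was at 3419 and 819 FPKM in MEF, 393 at day 12, and 80.8 and 169.8 at day 16, a change of -3.25 ± 0.69 (adjusted p = 0.00189). In both genes day 12 was the highest early library, below the lower MEF library. Non-muscle myosin heavy chains fell, Myh9 by 2.07 ± 0.25 (adjusted p = 1.34e-05) and Myh10 by 2.34 ± 0.39 (adjusted p = 0.00025), as did filamin A (Flna, -3.06 ± 0.40 (adjusted p = 3.16e-05)), vinculin (Vcl, -2.80 ± 0.43 (adjusted p = 0.000138)) and the tropomyosins Tpm1, Tpm2 and Tpm4. Myl9, the regulatory light chain of smooth muscle and non-muscle myosin, did not: it was at 632 and 421 FPKM in MEF, 622 at day 12, and 156 and 277 at day 16, so that day 12 was close to the higher MEF library and the day 16 libraries were below both. Srf, the transcription factor of the program, was at 64.8 and 21.5 FPKM in MEF, 28 at day 12, and 27.8 and 16.6 at day 16 and did not pass the test (-0.65 ± 0.55 (adjusted p = 0.379)). Its cofactor Mkl1 fell by 1.23 ± 0.25 (adjusted p = 0.00134). Myh11, a smooth muscle myosin, was at 7.23 and 5.95 FPKM in MEF, 21.3 at day 12, and 3.3 and 7.83 at day 16, and rose at day 12 alone (1.56 ± 0.48 (adjusted p = 0.0304)). Mkl1 no longer passed without MEF replicate 1 (-0.73, adjusted p = 0.0342). Myh11 at day 12 no longer passed without MEF replicate 2 (1.44, adjusted p = 0.0872).

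Serum response factor binds a sequence called the CArG box. The RefSeq table (GRCm38.p6) held 22 promoters of 20 contractile genes. Of these promoters 4, each of a different gene, held a CArG box on either strand in the 250 bases before the start. Of 32851 promoters of the same length 482 did (1.47%). The list was drawn up to hold contractile cytoskeleton genes and serum response factor targets. Its share of boxes and that of all promoters are therefore no independent comparison. Only exact matches to the box were counted. Those 4 promoters are printed because they carry the element shared by members that did and did not fall, with the box in capitals, 5′ to 3′ on the strand of the gene. No motif of another factor was searched.
Cnn2 (chr10:79988350-79988599, plus strand): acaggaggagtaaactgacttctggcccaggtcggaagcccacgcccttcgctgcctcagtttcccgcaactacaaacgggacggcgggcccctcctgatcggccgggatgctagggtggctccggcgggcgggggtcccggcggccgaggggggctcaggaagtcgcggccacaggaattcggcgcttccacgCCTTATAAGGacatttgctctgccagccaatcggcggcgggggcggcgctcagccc
Myl9 (chr2:156775214-156775463, plus strand): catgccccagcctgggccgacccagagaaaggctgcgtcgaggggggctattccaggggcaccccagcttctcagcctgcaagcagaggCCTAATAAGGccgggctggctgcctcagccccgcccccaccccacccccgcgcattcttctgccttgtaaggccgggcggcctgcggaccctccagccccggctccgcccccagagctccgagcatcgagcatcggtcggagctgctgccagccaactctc
Srf (chr17:46556163-46556412, minus strand): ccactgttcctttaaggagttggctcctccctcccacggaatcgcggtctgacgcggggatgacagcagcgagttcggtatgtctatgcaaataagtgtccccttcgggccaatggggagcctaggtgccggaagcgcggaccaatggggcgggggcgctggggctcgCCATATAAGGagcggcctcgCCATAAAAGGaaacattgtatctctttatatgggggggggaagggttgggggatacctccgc
Vcl (chr14:20929148-20929397, plus strand): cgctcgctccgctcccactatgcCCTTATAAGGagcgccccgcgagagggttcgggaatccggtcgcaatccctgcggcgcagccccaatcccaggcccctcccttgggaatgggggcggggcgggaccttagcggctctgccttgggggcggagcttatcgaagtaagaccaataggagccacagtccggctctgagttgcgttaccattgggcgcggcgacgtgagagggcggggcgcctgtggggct
The boxes begin 56 bases before the start of Cnn2, 161 before Myl9, 82 and 62 before Srf and 227 before Vcl. Cnn2, calponin 2, fell by 2.43 ± 0.47 (adjusted p = 0.000928) and Vcl by 2.80 ± 0.43 (adjusted p = 0.000138), while Myl9 and Srf did not pass the test. Genes with a box in this window thus included members that fell and members that did not pass. A match describes letters and is not evidence of binding.

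Most surface receptors fell. 22 of 32 fibroblast surface proteins fell and 5 rose, and 2 rose in the fit on the 5 libraries. Over all tested genes 7.74% fell and 17.4% rose, so the share of rises was not above that of all genes. Pdgfrb, a receptor for PDGF-BB, was at 40.6 and 153 FPKM in MEF, 2.56 at day 12, and 1.17 and 2.69 at day 16, a change of -4.71 ± 0.43 (adjusted p = 8.19e-07). Cspg4 (NG2), a proteoglycan of pericytes and mesenchymal cells, was at 27.1 and 22.3 FPKM in MEF, 0.282 at day 12, and 0.298 and 0.249 at day 16, a change of -4.33 ± 0.20 (adjusted p = 4.75e-10). Itga11, a collagen-binding integrin chain, was at 13.3 and 164 FPKM in MEF, 1.12 at day 12, and 0.371 and 0.327 at day 16, a change of -4.96 ± 0.62 (adjusted p = 2.09e-05). Integrin chains for fibronectin fell more moderately, Itga5 by 2.79 ± 0.41 (adjusted p = 8.87e-05), Itgav by 2.91 ± 0.29 (adjusted p = 2.14e-06) and Itgb1 by 2.28 ± 0.28 (adjusted p = 1.96e-05). Thy1 (ENSMUSG00000032011, mm10 chromosome 9, positions 44043384 to 44048579), the classic fibroblast surface glycoprotein, stood apart. It was at 259 and 353 FPKM in MEF, 310.1 at day 12, and 90.2 and 178 at day 16, so day 12 lay between the MEF libraries and day 16 below both. The change was -0.82 ± 0.53 (adjusted p = 0.248) over the early libraries and 0.04 ± 0.66 (adjusted p = 0.98) at day 12. At day 28, in 1 library, Thy1 was at 3.91 FPKM. Pdgfra, the other PDGF receptor, which XEN cells also carry, rose: it was at 8.22 and 56.5 FPKM in MEF, 150.0 at day 12, and 182 and 181 at day 16, a change of 2.89 ± 0.46 (adjusted p = 0.000168), with no overlap. Ly6a (Sca-1), a surface marker of mesenchymal progenitors, was at 8.98 and 92.6 FPKM in MEF, 425 at day 12, and 99.7 and 68.4 at day 16; it rose (2.23 ± 0.77 (adjusted p = 0.0331)) with day 12 far above every other library and day 16 replicate 2 inside the MEF range. Its call was lost under 9 of the alternatives, with an adjusted p of up to 0.558. Tgfbr2 and Cd34 rose at day 12, Tgfbr2 to 105 FPKM (1.95 ± 0.43 (adjusted p = 0.00451)) and Cd34 to 14.1 FPKM (2.84 ± 0.41 (adjusted p = 0.000174)). Ly6a no longer passed without MEF replicate 1 (0.62, adjusted p = 0.558) or day 12 (1.45, adjusted p = 0.134).

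The mesenchymal cytoskeleton thinned unevenly. 14 of 21 intermediate filament, S100, annexin and caveola genes fell and 0 rose, and 9 fell where MEF replicate 1 or day 16 replicate 1 was left out. Cav1, the coat protein of caveolae, was at 594 and 174 FPKM in MEF, 18.8 at day 12, and 8.11 and 11.9 at day 16, a change of -4.60 ± 0.70 (adjusted p = 0.000125). Its partners Sdpr and Prkcdbp fell by 3.92 ± 0.43 (adjusted p = 5.66e-06) and 3.68 ± 0.57 (adjusted p = 0.000147). Vim, the mesenchymal intermediate filament, was at 3323 and 2247 FPKM in MEF, 711 at day 12, and 195 and 1048 at day 16, a change of -2.37 ± 0.53 (adjusted p = 0.00266), and all early values were below both MEF libraries. Lgals1, a galectin abundant in mesenchyme, was at 3615 and 2118 FPKM in MEF, 2564 at day 12, and 756 and 1600.3 at day 16 and did not pass the test (-0.92 ± 0.82 (adjusted p = 0.403)). S100a10 kept 92.2% and S100a11 69% of the MEF mean at day 12, and of these S100a11 fell in the early libraries (-1.24 ± 0.33 (adjusted p = 0.0076)). S100a11 no longer passed without MEF replicate 1 (-0.86, adjusted p = 0.108) or day 16 replicate 1 (-0.96, adjusted p = 0.0358).

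More secreted signals fell than rose. Of 48 listed cytokines and growth factors 47 were tested, of which 18 fell and 7 rose, and 3 rose in the fit on the 5 libraries. The shares over all tested genes were 7.74% lower and 17.4% higher, so only the falls exceeded them. Ptx3, a soluble pattern recognition protein, was at 74.4 and 119.8 FPKM in MEF, 0.99 at day 12, and 0.412 and 1.01 at day 16, a change of -5.74 ± 0.22 (adjusted p = 5.55e-11). Wisp1, a CCN family matrix signal, was at 97.9 and 201 FPKM in MEF, 3.7 at day 12, and 2.48 and 1.98 at day 16, a change of -5.28 ± 0.36 (adjusted p = 3.63e-08). Ptn (pleiotrophin) was at 40.4 and 481 FPKM in MEF, 6.23 at day 12, and 1.27 and 2.26 at day 16, a change of -5.23 ± 0.66 (adjusted p = 2.28e-05). Lrrc17, a secreted leucine-rich repeat protein, was at 14.5 and 157 FPKM in MEF, 1.1 at day 12, and 0.177 and 0.422 at day 16, a change of -5.03 ± 0.58 (adjusted p = 9.68e-06). Mdk (midkine), a close relative of Ptn and a heparin-binding growth factor, rose and was at 77.6 and 114 FPKM in MEF, 838 at day 12, and 1028 and 875 at day 16, a change of 3.26 ± 0.27 (adjusted p = 3.05e-07). The chemokine Cxcl12 and the ligands Tgfb1 and Tgfb3 fell by 4.13 ± 0.55 (adjusted p = 3.73e-05), 2.55 ± 0.38 (adjusted p = 0.000111) and 3.87 ± 0.69 (adjusted p = 0.000471). Igf2, a fetal growth factor, was at 634 and 658 FPKM in MEF, 2759 at day 12, and 753 and 715 at day 16; day 12 was far above every other library, and the change did not pass (0.82 ± 0.84 (adjusted p = 0.474)). Igfbp3 was at 5.36 and 92.1 FPKM in MEF, 327 at day 12, and 58.9 and 78 at day 16 and rose at day 12 (3.75 ± 1.05 (adjusted p = 0.0195)). Wnt2, a ligand of the Wnt pathway, was at 0.642 and 1.87 FPKM in MEF, 25.6 at day 12, and 4.28 and 9.31 at day 16, a change of 2.38 ± 0.43 (adjusted p = 0.000519). Leukaemia inhibitory factor, Lif, was at 11 and 4.87 FPKM in MEF, 22.9 at day 12, and 27.1 and 37.5 at day 16, a change of 1.82 ± 0.37 (adjusted p = 0.00132). Igfbp3 at day 12 no longer passed without MEF replicate 1 (1.82, adjusted p = 0.083).

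Among 21 matrix proteases and inhibitors, 20 were tested, 13 fell and 1 rose; 7 fell in the fit on the 5 libraries and also without day 16 replicate 1. Mmp14, a membrane-bound collagenase, was at 358 and 389 FPKM in MEF, 156 at day 12, and 37.7 and 85 at day 16, a change of -2.21 ± 0.66 (adjusted p = 0.0153). Timp1 fell by 2.46 ± 0.54 (adjusted p = 0.00242). Timp2, an inhibitor that also activates Mmp2, was at 257 and 195 FPKM in MEF, 238 at day 12, and 75.9 and 95.8 at day 16 and did not pass the test. Mmp2, a gelatinase, was at 54.6 and 103 FPKM in MEF, 182 at day 12, and 74.7 and 108 at day 16, and Serpine2 (protease nexin), at 26.2 and 75.5 FPKM in MEF, 201 at day 12, and 74.3 and 126 at day 16, rose (1.45 ± 0.48 (adjusted p = 0.0262)). Mmp14 no longer passed without MEF replicate 1 (-2.27, adjusted p = 0.0586), MEF replicate 2 (-2.16, adjusted p = 0.0789) or day 16 replicate 1 (-1.69, adjusted p = 0.0701). Timp1 no longer passed without MEF replicate 1 (-1.25, adjusted p = 0.0664). Serpine2 no longer passed without MEF replicate 1 (0.70, adjusted p = 0.342), day 16 replicate 2 (1.43, adjusted p = 0.052) or day 12 (1.10, adjusted p = 0.0985).

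Transforming growth factor beta response genes mostly fell. 16 of 27 fell and 1 rose; 9 fell at day 12. Most of the genes of this list that fell are shared with the lists above, among them Acta2, Tagln, Col1a1, Col1a2, Fn1, Thbs1, Ltbp2, Itgav and Tgfb1. Of its members outside them, the feedback inhibitor Smad7 was at 58.6 and 9.26 FPKM in MEF, 5.28 at day 12, and 6.08 and 4.92 at day 16, a change of -1.95 ± 0.56 (adjusted p = 0.0133), and the repressors Ski and Skil fell by 1.58 ± 0.22 (adjusted p = 5.01e-05) and 1.65 ± 0.32 (adjusted p = 0.000849). Pmepa1, another feedback inhibitor, fell by 1.56 ± 0.43 (adjusted p = 0.0101). Id1, also a target of BMP signals, was at 112 and 20.5 FPKM in MEF, 167 at day 12, and 41 and 114 at day 16 and did not pass the test. Nor did Smad6, Tgif1, Id2, Id3, Bhlhe40, Cdkn2b, Lmcd1, Tgfbi and Il11. Itgb6, an epithelial integrin chain that activates the latent ligand, rose (2.22 ± 0.29 (adjusted p = 3.06e-05)). Smad7 no longer passed without MEF replicate 1 (-0.68, adjusted p = 0.326). Pmepa1 no longer passed without MEF replicate 1 (-1.13, adjusted p = 0.121).

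What was left at day 12 differed by function. Of 9110 tested genes with a MEF mean of at least 5 FPKM, 8025 (88.1%) kept at least 50% of that mean at day 12, a limit chosen after values had been seen. Among fibroblast transcription factors 18 of 25 did. Of collagen processing genes 10 of 19 did, of secreted signals 18 of 39, of cytoskeletal genes 9 of 21, of proteases and inhibitors 7 of 17, of elastic fibre genes 5 of 14, of surface proteins 9 of 28, of glycoproteins 5 of 18, of contractile genes 6 of 24 and of collagens 0 of 15. With median-of-ratios scaling the transcription factors came to 11 of 25, collagen processing to 8 of 19, and collagens to 0, while secreted signals stayed at 18 of 39. At day 16 the transcription factors came to 8 of 25 in each library, and collagen processing stayed at 10 of 19 in each. A broader rule set earlier counted a member as outlasting day 12 where it had not fallen and reached the lower MEF library. 23 of 39 secreted signals, 11 of 25 transcription factors and 0 of 15 collagens met it, and 70.4% of all genes with a MEF mean of at least 5 did. That rule is lax where the MEF replicates differ, as in Ptgs2, which met it at 6.82% of its MEF mean.

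**Figure D3:**
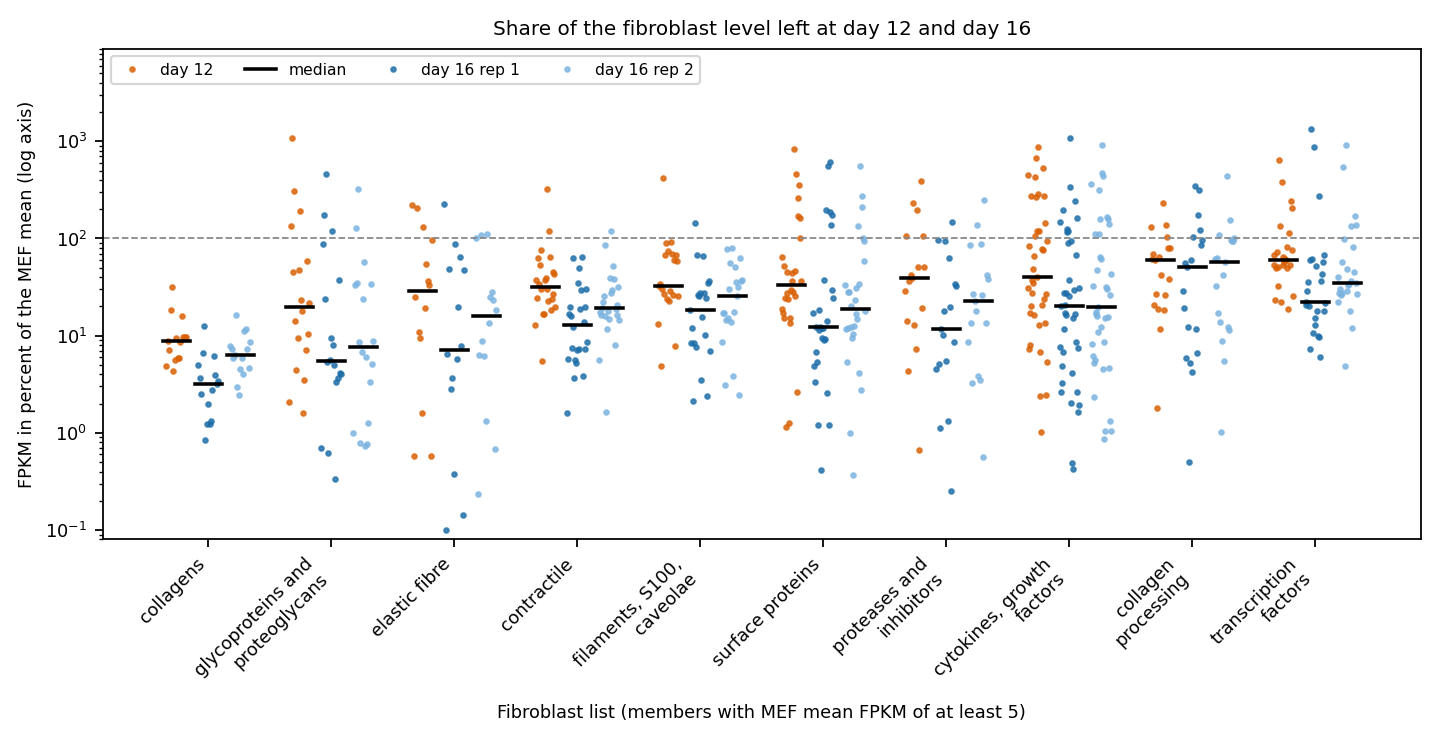
FPKM at day 12 (orange) and in each day 16 library (blue) in percent of the MEF mean, on a log axis, for the members of 10 fibroblast lists with a MEF mean of at least 5 FPKM. Each point is a gene, black bars are medians, the dashed line is the MEF mean, and values under 0.1% are drawn at 0.1%. Medians at day 12 run from 8.81% for collagens to 60.1% for transcription factors.

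Transcription factors of mesenchyme had the highest median level left at day 12 among the fibroblast lists, 60.1% of the MEF mean. With median-of-ratios scaling this median was 47.9%, close to the 47.2% of collagen processing genes. Of 42 listed, 40 were in the files and 34 were tested; 15 fell and 4 rose in the early libraries, 5 fell and 3 rose at day 12, and 7 fell in the fit on the 5 libraries over the early comparison. Twist1, a basic helix-loop-helix factor of mesenchyme, was at 33.4 and 76.3 FPKM in MEF, 135 at day 12, and 31.3 and 92.9 at day 16. Day 12 was above both MEF libraries and the day 16 libraries lay on either side of the MEF range, a change of 0.53 ± 0.47 (adjusted p = 0.409). Twist2 was at 60.3 and 52.3 FPKM in MEF, 115 at day 12, and 38.5 and 78.2 at day 16 (0.32 ± 0.36 (adjusted p = 0.523)). Prrx1, a homeobox factor of limb and connective tissue mesenchyme, was at 115 and 133 FPKM in MEF, 66.3 at day 12, and 18.8 and 35.6 at day 16. Every early library was below both MEF libraries, with a change of -1.77 ± 0.43 (adjusted p = 0.00486) over the early libraries and -0.89 ± 0.49 (adjusted p = 0.225) at day 12. At day 28, Twist1, Twist2 and Prrx1 were at 7.15, 1.44 and 0.61 FPKM. Zeb1, a repressor of epithelial genes, was at 14.5 and 19.4 FPKM in MEF, 12.9 at day 12, and 3.03 and 5.97 at day 16: day 12 was close to the lower MEF library and day 16 was lower, a change of -1.28 ± 0.38 (adjusted p = 0.016). Its relative Zeb2 was at 30.5 and 36.4 FPKM in MEF, 8.57 at day 12, and 7.25 and 9.08 at day 16 and had fallen by day 12 (-1.84 ± 0.39 (adjusted p = 0.00387)). Snai2 fell in the early libraries (-1.62 ± 0.41 (adjusted p = 0.00631)), while Snai1, also a factor of parietal endoderm, was at 45.9 and 59.1 FPKM in MEF, 43.1 at day 12, and 143 and 71 at day 16 and did not pass. Osr1 and Tbx15, factors of mesenchymal patterning, fell by 2.69 ± 0.29 (adjusted p = 6.06e-06) and 2.61 ± 0.36 (adjusted p = 4.88e-05). Klf4, Msx1 and Msx2 were among those that rose. Klf4, which pluripotent cells also use, was at 25.1 and 23.3 FPKM in MEF, 154 at day 12, and 322 and 132 at day 16, a change of 2.90 ± 0.39 (adjusted p = 4.33e-05). Msx1 was at 1.46 and 1.25 FPKM in MEF, 21.1 at day 12, and 9.4 and 24.1 at day 16, a change of 2.93 ± 0.47 (adjusted p = 0.0002). Zeb1 no longer passed without MEF replicate 2 (-1.09, adjusted p = 0.118) or day 16 replicate 1 (-0.85, adjusted p = 0.0688). Snai2 no longer passed without MEF replicate 2 (-1.09, adjusted p = 0.11).

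Genes that fold and process procollagen kept a median of 59.4% of the MEF mean at day 12. Of 19 genes for collagen folding, processing and cross-linking, 8 fell and 1 rose. Serpinh1 (Hsp47), the procollagen chaperone of the endoplasmic reticulum, was at 1151 and 1644 FPKM in MEF, 533 at day 12, and 1195 and 1316 at day 16, fell at day 12 (-1.37 ± 0.36 (adjusted p = 0.015)) and did not pass over the early libraries (-0.55 ± 0.35 (adjusted p = 0.239)). Sparc, a collagen-binding glycoprotein that parietal endoderm also secretes, was at 1379.9 and 2473 FPKM in MEF, 1528 at day 12, and 1871 and 1926 at day 16; all early libraries lay inside the MEF range (-0.07 ± 0.44 (adjusted p = 0.924)). P4ha2, a prolyl hydroxylase, was at 46 and 56.2 FPKM in MEF, 119.8 at day 12, and 179 and 225 at day 16, a change of 1.71 ± 0.53 (adjusted p = 0.0194). The lysyl hydroxylases Plod1, Plod2 and Plod3 did not pass the test, with early values of 58 to 73.5, 22.4 to 74 and 113 to 174 FPKM. Fkbp10, Pcolce and Bmp1, which fold or trim fibrillar procollagen, fell by 2.90 ± 0.50 (adjusted p = 0.000355), 2.81 ± 0.64 (adjusted p = 0.0029) and 1.50 ± 0.36 (adjusted p = 0.00435). Some matrix proteins also stayed: Dcn (decorin) was at 16.7 and 48.3 FPKM in MEF, 44.2 at day 12, and 28.9 and 10.7 at day 16 and Lum (lumican) at 1.32 and 12.5 FPKM in MEF, 13.3 at day 12, and 8.3 and 3.98 at day 16, neither passing the test. Fbln1 was at 33.5 and 82.1 FPKM in MEF, 179 at day 12, and 264 and 187 at day 16, above both MEF libraries in all 3 without passing (1.96 ± 0.78 (adjusted p = 0.0623)). Serpinh1 at day 12 no longer passed without MEF replicate 2 (-1.11, adjusted p = 0.0731). P4ha2 no longer passed without MEF replicate 1 (1.57, adjusted p = 0.0991), MEF replicate 2 (1.85, adjusted p = 0.0611) or day 16 replicate 2 (1.51, adjusted p = 0.0593). Pcolce no longer passed without MEF replicate 2 (-2.15, adjusted p = 0.0567). Bmp1 no longer passed without MEF replicate 2 (-1.20, adjusted p = 0.0641).

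Endoderm factors were present at day 12. Of 31 listed XEN factors and signals 25 were tested, 21 rose and 1 fell in the early libraries, and 20 rose at day 12, and 13 in the fit on the 5 libraries. Gata4 (ENSMUSG00000021944, mm10 chromosome 14, positions 63198922 to 63271692), a zinc finger factor of endoderm, was at 0.412 and 0.0307 FPKM in MEF, 188 at day 12, and 457 and 370.2 at day 16, a change of 8.04 ± 0.36 (adjusted p = 3.31e-10). Sox17, an HMG box factor of endoderm, was at 0.211 and 0 FPKM in MEF, 330.3 at day 12, and 599.5 and 432 at day 16, a change of 8.65 ± 0.31 (adjusted p = 2.7e-11). Foxa2, a pioneer factor of endoderm, was at 0.178 and 0.0724 FPKM in MEF, 35 at day 12, and 93.4 and 52.8 at day 16, a change of 5.66 ± 0.30 (adjusted p = 1.74e-09), and Gata6 was at 2.58 and 4.32 FPKM in MEF, 32.4 at day 12, and 81.5 and 58.6 at day 16, a change of 3.65 ± 0.46 (adjusted p = 2.11e-05). The groups are apart in all 4 genes, and day 12 was the lowest early library in each. Cited1, a transcriptional coregulator, was at 0.0862 and 0 FPKM in MEF, 275 at day 12, and 502 and 649 at day 16, a change of 8.75 ± 0.54 (adjusted p = 1.18e-08). Hnf4a, a factor of visceral endoderm, rose by 2.70 ± 0.49 (adjusted p = 0.000572). The ligand Ihh was at 0.0518 and 0 FPKM in MEF, 92 at day 12, and 137 and 80.9 at day 16, a change of 6.63 ± 0.33 (adjusted p = 8.77e-10). The member that fell was Fgf5 (-1.11 ± 0.16 (adjusted p = 7.65e-05)), and Lefty1, Dab2 and Prdm1 did not pass the test.

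**Figure D4:**
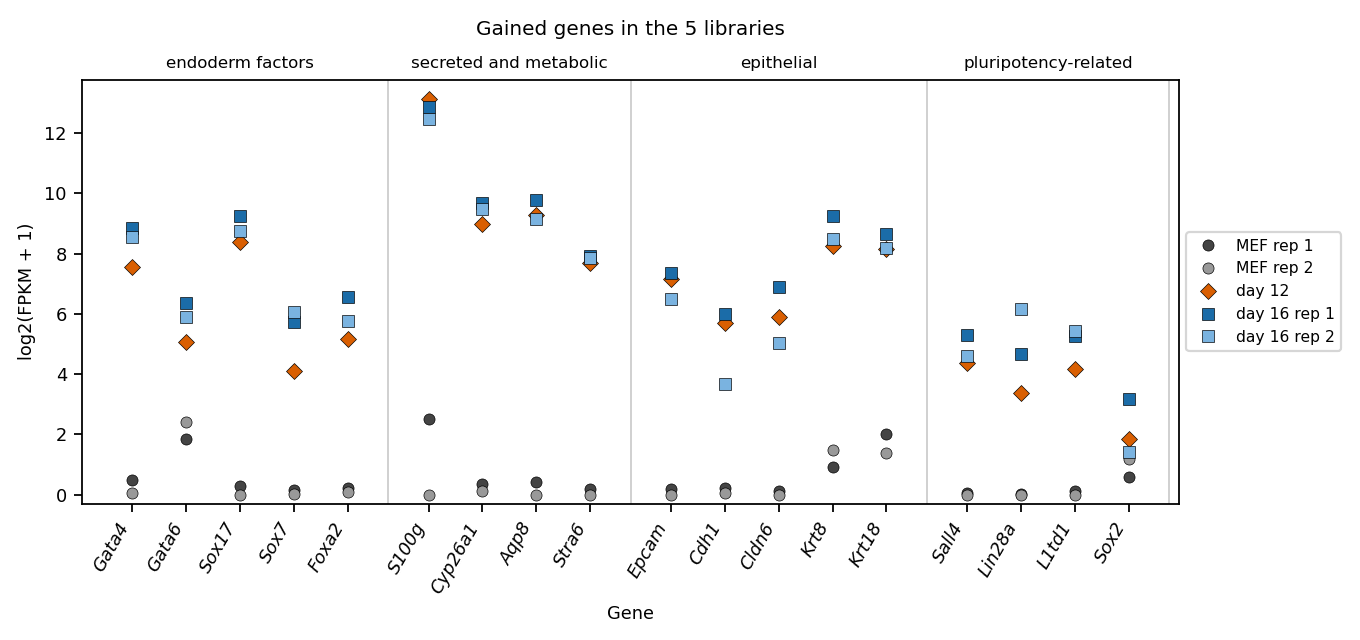
log2(FPKM + 1) of endoderm, secreted, epithelial and pluripotency-related genes in each of the 5 libraries (grey circles MEF, orange diamond day 12, blue squares day 16). Early libraries lie above both MEF libraries for each gene drawn. Sox2 is the smallest difference and did not pass the test.

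Genes of XEN products rose too. 14 of 24 parietal endoderm and basement membrane genes rose and 1 fell, and 11 rose at day 12. S100g (ENSMUSG00000040808, mm10 chromosome X, positions 162961992 to 162964599), a calcium-binding protein, was at 4.68 and 0 FPKM in MEF, 8858 at day 12, and 7522 and 5679.7 at day 16, a change of 11.57 ± 1.32 (adjusted p = 8.61e-06). It is a short transcript of 480 nt, and between the day 16 libraries, genes of up to 500 nt stood 0.29 higher in replicate 1 while genes over 4000 nt stood 0.21 lower, medians on the log2 scale. Srgn (serglycin), the core protein of secretory granules, was at 0.705 and 1.14 FPKM in MEF, 549 at day 12, and 1077 and 595 at day 16, a change of 8.53 ± 0.40 (adjusted p = 4.68e-10). The water channel Aqp8 was at 0.335 and 0 FPKM in MEF, 617 at day 12, and 878 and 569.6 at day 16, a change of 9.19 ± 0.32 (adjusted p = 1.87e-11). Lama1, the laminin chain of the earliest basement membrane, was at 0.364 and 2.21 FPKM in MEF, 106 at day 12, and 285 and 275 at day 16, a change of 6.60 ± 0.56 (adjusted p = 4.15e-07). Its partners Lamb1 and Lamc1 were already at 113 and 93.1 and 50.1 and 70.7 FPKM in MEF and rose by 1.50 ± 0.40 (adjusted p = 0.00885) and 2.13 ± 0.36 (adjusted p = 0.000313). Collagen IV, the network collagen of basement membrane, rose as the fibrillar collagens fell: Col4a1 was at 307 and 295 FPKM in MEF, 679 at day 12, and 1207 and 1278 at day 16, a change of 1.75 ± 0.33 (adjusted p = 0.000666). Hspg2 (perlecan), another basement membrane protein, fell (-1.71 ± 0.35 (adjusted p = 0.00136)). Of 27 listed visceral endoderm genes 14 were tested, 9 rose and 0 fell. Dpp4, a serine protease of the brush border, was at 0.269 and 0.256 FPKM in MEF, 36.5 at day 12, and 19.6 and 29.7 at day 16, a change of 4.51 ± 0.39 (adjusted p = 4.72e-07). Cubn and Lrp2, endocytic receptors that work together, were at 0.306 and 0.214 FPKM in MEF, 7.09 at day 12, and 8.27 and 31.1 at day 16 and 2.09 and 0.474 FPKM in MEF, 5.32 at day 12, and 20.7 and 18.8 at day 16. Both rose (3.41 ± 0.53 (adjusted p = 0.000156) and 2.71 ± 0.54 (adjusted p = 0.00106)). Afp, Ttr, Apoa1 and Alb, secreted products of mature visceral endoderm, did not pass the filter on low values. Lamb1 no longer passed without MEF replicate 2 (1.36, adjusted p = 0.0683).

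Epithelial genes rose almost throughout the list. Of 40 listed genes for junctions, polarity and epithelial splicing, 38 were tested, 34 rose and 0 fell in the early libraries, and the counts at day 12 were also 34 and 0. In the fit on the 5 libraries 20 rose at day 12, and 19 with the difference between files as a covariate. Epcam, an epithelial adhesion molecule, was at 0.135 and 0 FPKM in MEF, 143 at day 12, and 161 and 90.0 at day 16, a change of 6.91 ± 0.49 (adjusted p = 6.01e-08). Cdh1, E-cadherin, was at 0.166 and 0.032 FPKM in MEF, 50.6 at day 12, and 62.5 and 11.8 at day 16, a change of 4.99 ± 0.63 (adjusted p = 2.17e-05), with day 16 replicate 2 the lowest early library. Cldn6, an embryonic claudin, was at 0.0943 and 0 FPKM in MEF, 59 at day 12, and 118 and 31.5 at day 16, a change of 5.88 ± 0.53 (adjusted p = 7.63e-07). The splicing regulators Esrp1 and Esrp2 rose by 3.71 ± 0.62 (adjusted p = 0.000277) and 3.27 ± 0.35 (adjusted p = 5.34e-06), and Elf3, an epithelial ETS factor, by 5.79 ± 0.47 (adjusted p = 2.56e-07). In the embryo-derived XEN line labelled eXEN the means of Cdh1, Cldn3, Cldn4, Cldn6 and Epcam over 2 libraries were 0.38, 0, 0.144, 1.40 and 5.18 FPKM. These were below the means of the early libraries of 41.7, 23.9, 41.9, 69.6 and 131 FPKM, a difference not tested here. Cdh2, N-cadherin, fell (-2.44 ± 0.48 (adjusted p = 0.00103)). Of 10 listed keratins 8 were tested, and 5 rose. Krt8 and Krt18, which pair into filaments of simple epithelium, were at 0.886 and 1.81 FPKM in MEF, 301 at day 12, and 600.3 and 353 at day 16 and 3.02 and 1.58 FPKM in MEF, 282 at day 12, and 400.4 and 292 at day 16. They rose by 7.44 ± 0.89 (adjusted p = 1.33e-05) and 6.64 ± 0.91 (adjusted p = 4.59e-05). Krt7 was at 4.02 and 0.85 FPKM in MEF, 41.8 at day 12, and 27.4 and 1.39 at day 16 and rose at day 12 alone (3.81 ± 1.01 (adjusted p = 0.0151)), as did Krt14, a basal keratin, at 0.264 and 0.746 FPKM in MEF, 6.28 at day 12, and 0.521 and 1.16 at day 16. Krt7 at day 12 no longer passed without MEF replicate 2 (3.09, adjusted p = 0.0807).

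Wnt target genes feed back on the pathway: of 25 listed 22 were tested, 14 rose and 0 fell in the early libraries, and 10 rose at day 12. Axin2, a scaffold of the beta-catenin destruction complex, was at 0.495 and 1.75 FPKM in MEF, 41.9 at day 12, and 69.3 and 55.9 at day 16, a change of 4.78 ± 0.51 (adjusted p = 4.35e-06). Notum, a secreted enzyme that inactivates Wnt proteins, was at 0.0499 and 0.11 FPKM in MEF, 78.4 at day 12, and 19.1 and 63.4 at day 16, a change of 5.44 ± 0.62 (adjusted p = 8.2e-06). Sp5, a direct target factor, was at 0 and 0 FPKM in MEF, 26.4 at day 12, and 5.42 and 8.58 at day 16, a change of 3.57 ± 0.53 (adjusted p = 9.5e-05). Lgr5 and Myc, also targets, did not pass the test. Retinoic acid is made by aldehyde dehydrogenases and removed by the Cyp26 enzymes it induces. Of 25 listed genes 21 were tested, 10 rose and 2 fell. Cyp26a1 was at 0.275 and 0.0861 FPKM in MEF, 507 at day 12, and 819 and 714 at day 16, a change of 9.15 ± 0.26 (adjusted p = 2.26e-12), and Stra6, the retinol uptake receptor, was at 0.148 and 0 FPKM in MEF, 203 at day 12, and 239 and 229 at day 16, a change of 7.71 ± 0.35 (adjusted p = 3.31e-10). Rarb, a receptor that retinoic acid induces, was at 0.747 and 0.31 FPKM in MEF, 20.4 at day 12, and 4.45 and 11.7 at day 16, highest at day 12, a change of 2.91 ± 0.51 (adjusted p = 0.000407). The receptors Rara and Rarg fell by 2.0 ± 0.40 (adjusted p = 0.00121) and 2.01 ± 0.48 (adjusted p = 0.00436). Of 24 cyclic AMP response genes 21 were tested, 7 rose and 1 fell, and the median of 0.15 was below that of all genes. Ppargc1a, a coactivator of mitochondrial genes, and Crem, a repressor of the response, rose by 3.33 ± 0.24 (adjusted p = 6.01e-08) and 1.42 ± 0.25 (adjusted p = 0.000395), while Fos, Nr4a1 and Dusp1 did not pass the test. Rarg no longer passed without MEF replicate 2 (-1.49, adjusted p = 0.0781).

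Pluripotency-related genes were present in part. Of 38 listed 22 were tested, 16 rose and 1 fell in the early libraries; 9 rose with the difference between files as a covariate and 11 in the fit on the 5 libraries. Sall4, a zinc finger factor shared with XEN cells, was at 0.0353 and 0 FPKM in MEF, 19.7 at day 12, and 38.5 and 23.2 at day 16, a change of 4.73 ± 0.31 (adjusted p = 2.36e-08). Lin28a, an RNA-binding protein that blocks let-7 miRNAs, was at 0.0189 and 0 FPKM in MEF, 9.41 at day 12, and 24.4 and 70.5 at day 16, a change of 4.72 ± 0.50 (adjusted p = 4.2e-06). L1td1, another RNA-binding protein of pluripotent cells, was at 0.0795 and 0 FPKM in MEF, 16.9 at day 12, and 37.1 and 42.1 at day 16, a change of 4.89 ± 0.46 (adjusted p = 1.23e-06). Sox2 was at 0.496 and 1.26 FPKM in MEF, 2.57 at day 12, and 8.03 and 1.69 at day 16 and did not pass the test (1.27 ± 0.53 (adjusted p = 0.072)). Some members were highest in day 16 replicate 1: Dppa5a was at 0.842 and 0.324 FPKM in MEF, 13.6 at day 12, and 131 and 0.727 at day 16, and Tdgf1 at 0.179 and 0 FPKM in MEF, 7.46 at day 12, and 42.1 and 1.16 at day 16. Klf2 fell (-3.04 ± 0.55 (adjusted p = 0.000534)). Of 22 trophoblast genes 14 were tested, 8 rose and 0 fell, and 5 rose with the difference between files as a covariate. Prl2c2 (proliferin), a placental hormone, was at 0.379 and 0 FPKM in MEF, 103 at day 12, and 64.7 and 141 at day 16, a change of 6.40 ± 0.51 (adjusted p = 2.29e-07), in a family of near-identical genes whose reads could be split between copies. Elf5, a trophoblast factor, was at 0 and 0 FPKM in MEF, 14.6 at day 12, and 13.47 and 0.957 at day 16.

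Genes that switched on outnumbered genes that switched off. 407 genes were under 0.5 FPKM in both MEF libraries and at least 5 at day 12. Of these, 168 were at least 5 in both day 16 libraries, 127 in 1 of them and 112 in neither, and 15 were under 0.5 in both. 58 of the 407 were at least 5 in both libraries of the embryo-derived XEN line (eXEN), and 60 in both of embryonic stem cells. The share of all genes at that level in those cells was not counted. The 2 counts therefore do not show whether the gained genes were more or less like either cell type than other genes. The mirror, at least 5 in both MEF libraries and under 0.5, held 15 genes at day 12 and 7 in all 3 early libraries: C1qtnf3, Cspg4, Fgf13, Ldlrad4, Mfap4, Tll1 and Tnmd. These 7 were named because they are so few. Tnmd (tenomodulin), a tendon protein, was at 6.02 and 52.6 FPKM in MEF, 0.181 at day 12, and 0 and 0.0553 at day 16. The larger share of losses left a remainder above 0.5 FPKM: Col1a1 at day 12 was still at 133 FPKM. Without MEF replicate 1 the 7 became 50, and without replicate 2 they became 28.

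Little separated day 16 from day 12 in the test, and more genes fell than rose. The 185 genes that fell and 19 that rose became 0 and 0 in the fit on the 5 libraries, where the smallest adjusted p was 0.78 and 537 genes had an unadjusted p under 0.05, and 0 and 1 with a pseudocount of 0.1. Between day 12 and day 16 replicate 1 alone, whose files share the low-data status, 282 fell and 93 rose. Lin28a and Sox7, a SOX factor of endoderm, were among the 5 largest rises, by 2.03 ± 0.45 (adjusted p = 0.0351) and 1.78 ± 0.29 (adjusted p = 0.00511). Sox7 was at 0.121 and 0.0218 FPKM in MEF, 16.3 at day 12, and 51.9 and 65.7 at day 16. The others were Ntn3 (a netrin), Vwa5b2 and Smoc1 (a basement membrane protein), the last at 8.85 and 5.79 FPKM in MEF, 3.24 at day 12, and 9.46 and 18.8 at day 16. Among the falls, Isg15, a ubiquitin-like modifier that interferon induces, was at 2.37 and 14 FPKM in MEF, 92.1 at day 12, and 13.4 and 1.34 at day 16, a change from day 12 of -4.00 ± 0.80 (adjusted p = 0.0186), and Ifi27l2a was at 0.645 and 1.55 FPKM in MEF, 56.4 at day 12, and 11.5 and 0.666 at day 16, a change of -3.65 ± 0.71 (adjusted p = 0.0152). Dmkn (dermokine), an epithelial secreted protein, was at 0 and 0 FPKM in MEF, 94.7 at day 12, and 11.1 and 2.75 at day 16, a change of -3.83 ± 0.49 (adjusted p = 0.00114). Rnase1 and Oit1, both listed at 0 in MEF, were at 21 and 27.3 FPKM at day 12 and at most 1.87 and 2.7 at day 16. Among fibroblast genes, Ecm1, a glycoprotein of skin matrix, was at 99.7 and 56.5 FPKM in MEF, 853 at day 12, and 135 and 99.2 at day 16: it rose at day 12 (3.49 ± 0.64 (adjusted p = 0.00132)) and fell by day 16 (-2.87 ± 0.64 (adjusted p = 0.0369)). Prkcdbp, Ncam1, Adam12 and Osr1 were lower than MEF at day 12 and fell further (-2.35 ± 0.50 (adjusted p = 0.0283), -2.40 ± 0.43 (adjusted p = 0.0095), -1.80 ± 0.38 (adjusted p = 0.0255) and -1.13 ± 0.27 (adjusted p = 0.0473)). Lin28a from day 12 to day 16 no longer passed without day 16 replicate 2 (1.29, adjusted p = 0.0745). Ecm1 from day 12 to day 16 no longer passed without day 16 replicate 1 (-3.09, adjusted p = 0.053) or day 16 replicate 2 (-2.65, adjusted p = 0.101). Prkcdbp from day 12 to day 16 no longer passed without day 16 replicate 1 (-2.30, adjusted p = 0.067). Adam12 from day 12 to day 16 no longer passed without day 16 replicate 1 (-1.47, adjusted p = 0.0761). Osr1 from day 12 to day 16 no longer passed without day 16 replicate 2 (-0.80, adjusted p = 0.0745).

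**Figure D5:**
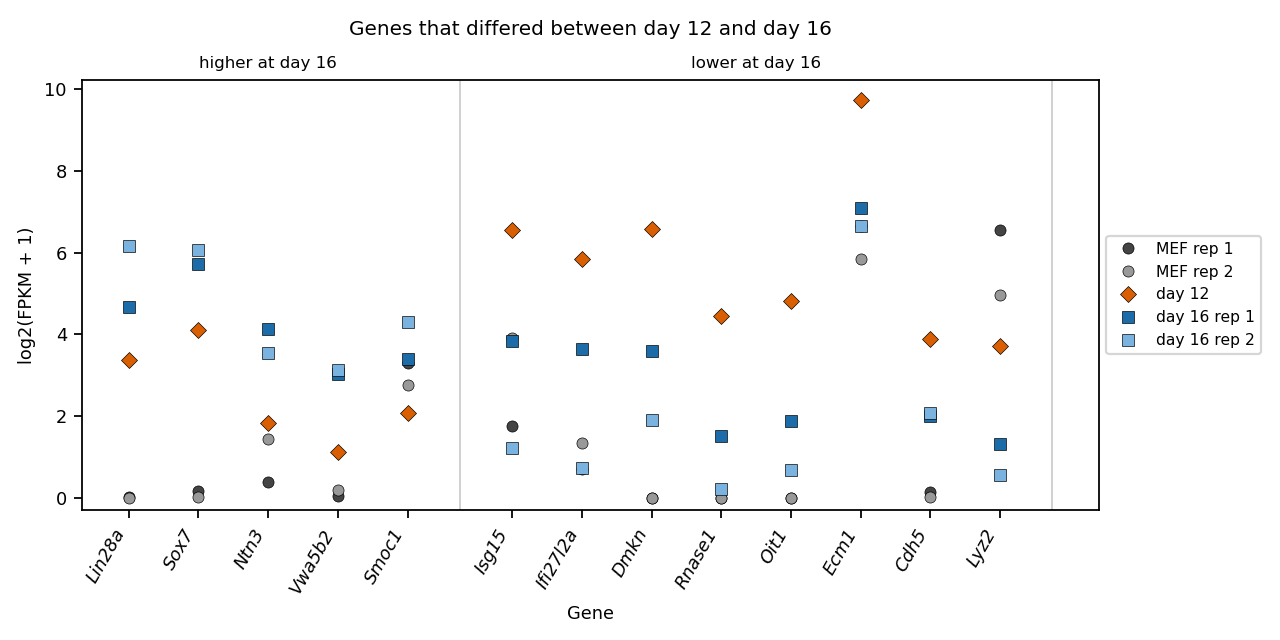
log2(FPKM + 1) in each of the 5 libraries for genes that rose (left) or fell (right) from day 12 to day 16 (grey circles MEF, orange diamond day 12, blue squares day 16). The genes at the right are highest at day 12 among the early libraries, and Dmkn, Rnase1 and Oit1 are listed at 0 in both MEF libraries.

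Macrophage markers fell and endothelial markers rose. Of 20 macrophage and blood markers 15 were tested, 11 fell and 1 rose in the early libraries. Their summed FPKM was 160.8 and 80.8 in MEF and 6.57 to 50.2 in the early libraries, and C1qb was listed at 0 in all 3. Lyz2, a lysozyme of myeloid cells, was at 92.6 and 30.2 FPKM in MEF, 12.1 at day 12, and 1.5 and 0.477 at day 16, a change of -3.89 ± 0.61 (adjusted p = 0.000165). Of 16 endothelial markers 8 were tested and 5 rose. The sums were 50.5 and 32.8 FPKM in MEF and 156 to 207 in the early libraries. Flt1 and Egfl7 were the highest members in each early library, and Flt1 did not pass the test (adjusted p = 0.264). In the embryo-derived XEN line Flt1, Egfl7 and Tek had means of 70.8, 110.8 and 14.5 FPKM. Cdh5, Esam and Vwf had means of 0.286, 1.92 and 0.784 FPKM in that line. Cdh5, VE-cadherin, was at 0.099 and 0.0179 FPKM in MEF, 13.8 at day 12, and 3.02 and 3.19 at day 16, highest at day 12. Pecam1, Tie1 and Cldn5 did not pass the filter on low values, since they reached 1 FPKM at day 12 only, at 2.54, 1.37 and 2.01 FPKM. Which cells carried these markers, and their part in the results above, was not tested.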

How the data were processed

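RNA was measured by sequencing in 21 libraries, of which 5 enter the comparisons. Total RNA was extracted from cultures and made into libraries with the NEBNext Ultra kit, per the labels' protocols. The authors deposited FPKM per gene for each library. TopHat, Cufflinks and the mm10 build are named in the submitters' processing notes, and their versions are not given in the sources used here. FPKM keeps relative depth only through its smallest steps, so no count test was run.

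Genes that 2 or more of the 5 libraries held at 1 FPKM or above were tested with limma 3.58.1 (R 4.3.3) on log2(FPKM + 1), with an intensity trend and Benjamini-Hochberg adjustment over 14182 genes. All 21 libraries lent residual degrees of freedom (12 for early against MEF, 11 for day 12). Calls need an adjusted p under 0.05 and a log2 change of at least 1. Summaries used Python 3.11.15 and pandas 2.3.3. On data for 14182 genes simulated with independent normal noise, changes were put only into genes whose mean of the compared groups was above 2 on the log2 scale. Changes in genes below that were not simulated. For the early comparison, 79% of 100 genes changed by 2 and 99% of 100 changed by 4 were recovered. The values for day 12 were 74% and 96%, and for day 16 against day 12 they were 64% and 92%. Calls on unchanged genes numbered 15, 12 and 11 in that order. Named genes are a preset set of lineage markers, the 10 highest and 10 lowest non-overlapping changes, up to 4 called and 4 lasting members of each of the 30 lists, and the 5 highest and lowest changes from day 12 to day 16. Others were chosen after their values were seen. Some genes chosen this way are left out of the text. The members and lists were chosen with earlier results of these data known. Alternatives were another pseudocount, filter, scaling or set of libraries, a replicate block, a covariate for the low-data status, and leaving out libraries.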

Additional observations from a re-analysis of the deposited data

How the results depend on the processing

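The calls against MEF in the early libraries stayed within 1.5 times with a pseudocount of 0.1 (2747 higher, 1028 lower), with an FPKM filter of 5 (1846 and 834) and with each library left out (2217 to 2592 higher, 844 to 1264 lower). Counts beyond that came from quantile normalization (1697 lower) and the fit on the 5 libraries (1517 higher, 602 lower). At day 12 the counts became 1212 lower with quantile normalization, 995 lower with median-of-ratios scaling, 392 higher and 41 lower on the 5 libraries, and 798 higher and 148 lower with the low-data status as a covariate. Leaving out each other library gave 1914 to 2154 higher and 594 to 717 lower. Leaving out day 12 itself gives no value there.

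From day 12 to day 16, genes higher numbered 1 with a pseudocount of 0.1, 4 with an FPKM filter of 5, 33 with quantile normalization, 0 on the 5 libraries, and 93 between libraries with the low-data status. Genes lower numbered 0, 26, 156, 0 and 282 in that order, and 348 with no filter. Leaving out each library gave 29 to 93 higher and 282 to 331 lower. Genes gained in all 3 early libraries numbered 184 to 279 and genes lost 9 to 50 when a library was left out. The cause was not tested. Of 143 calls on named genes 48 were lost under an alternative, 39 of them in the fit on the 5 libraries, 22 with the covariate and 30 without a library. Genes that had not passed the test changed sign. Sparc was at 0.06 with the covariate and in day 16 replicate 2 alone, and at -0.49 to 0.36 with a library left out. Thy1 at day 12 was at -0.21 with quantile normalization, -0.30 with median-of-ratios scaling and -0.19 to 0.26 with a library left out. With a library left out Srf was at -1.43 to 0.13, Twist1 at -0.06 to 1.13 and Twist2 at -0.03 to 0.75, and Twist2 was at 0.00 with median-of-ratios scaling.

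Replicate numbers in the labels do not mark a shared source, and the correlation of replicate differences between MEF and day 16 was -0.111. The replicate block gave 2489 higher and 1120 lower in the early libraries, 2125 and 636 at day 12, and 30 and 278 from day 12 to day 16. A crossed replicate block, chosen after seeing the data, gave 2529 and 1130, 2202 and 646, and 31 and 298. Genes near the limit of detection and day 12, with its lone library, are the least precise.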

Other observations

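Hox genes record the position of a cell along the body axis. Of 39 listed 32 were tested, 5 fell and 0 rose in the early libraries, and 1 fell and 1 rose at day 12. In the fit on the 5 libraries 1 fell. Over all tested genes 7.74% fell and 17.4% rose in the early libraries. The 5 that fell were Hoxb2, Hoxc6, Hoxc8, Hoxc10 and Hoxc11, of which 4 lie in the HoxC cluster. Hoxc11 was at 2.45 and 2.31 FPKM in MEF, 0.155 at day 12, and 0.0769 and 0.177 at day 16, a change of -1.57 ± 0.16 (adjusted p = 2.32e-06). Hoxc8 was at 8.53 and 16.3 FPKM in MEF, 9.01 at day 12, and 2.49 and 2.66 at day 16 and fell between day 12 and day 16 (-1.49 ± 0.29 (adjusted p = 0.0173)). Hoxa9 was at 8.22 and 10.4 FPKM in MEF, 15.2 at day 12, and 12.2 and 35.2 at day 16, above both MEF libraries in all 3 without passing the test, and Hoxa10 was at 6.92 and 18.3 FPKM in MEF, 11.1 at day 12, and 8.03 and 18.2 at day 16. In day 16 replicate 2 against MEF, 5 Hox genes were higher and 5 lower. At day 12, 10 of the 13 Hox genes with a MEF mean of at least 5 FPKM kept at least 50% of it (76.9%). That share was below the 88.1% of all tested genes with such a mean.

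Among genes of cell cycle arrest, Cdkn2a, whose locus encodes an inhibitor of cyclin D kinases and a stabiliser of p53, was at 13.4 and 32.5 FPKM in MEF, 242 at day 12, and 89.4 and 126 at day 16, a change of 2.68 ± 0.52 (adjusted p = 0.000966). Cdkn1c, an imprinted inhibitor, was at 16.5 and 46.4 FPKM in MEF, 104 at day 12, and 88 and 68.2 at day 16, a change of 1.58 ± 0.39 (adjusted p = 0.00472), and Cdkn1a was at 179 and 121 FPKM in MEF, 291 at day 12, and 98.4 and 165 at day 16 without passing the test. Of 21 genes of this list 5 rose and 3 fell. Trp53 fell (-1.25 ± 0.22 (adjusted p = 0.000469)), as did Gadd45b (-2.74 ± 0.41 (adjusted p = 0.000103)), while Gadd45a rose (2.48 ± 0.64 (adjusted p = 0.0067)). Of 28 replication and mitosis genes 2 rose and 0 fell, whereas both scalings gave 0 higher and 2 lower, and leaving out MEF replicate 1 gave 10 higher. Mki67, a marker of cycling cells, was at 24.6 and 22.5 FPKM in MEF, 8.24 at day 12, and 12.8 and 19.7 at day 16 and fell at day 12 (-1.41 ± 0.43 (adjusted p = 0.0314)), and Mcm7, a replicative helicase subunit, was at 66.8 and 34 FPKM in MEF, 91.3 at day 12, and 93.3 and 155 at day 16 and rose (1.19 ± 0.26 (adjusted p = 0.00254)). The summed FPKM of that list was 1911 and 888 in MEF, 1318 at day 12, and 1639 and 2238 at day 16. Cdkn1c no longer passed without MEF replicate 1 (0.86, adjusted p = 0.114). Gadd45a no longer passed without MEF replicate 1 (1.45, adjusted p = 0.135). Mki67 at day 12 no longer passed without MEF replicate 1 (-1.34, adjusted p = 0.0832) or MEF replicate 2 (-1.47, adjusted p = 0.0614). Mcm7 no longer passed without MEF replicate 2 (0.71, adjusted p = 0.0687) or day 16 replicate 2 (0.94, adjusted p = 0.00958).

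Striated muscle genes differed widely between the MEF replicates. Of 32 listed 22 were tested, and 2 rose and 1 fell in the early libraries. The summed FPKM was 25.5 and 234 in MEF, 294 at day 12, and 191 and 95.2 at day 16. Actc1, cardiac actin, was at 0.242 and 26.8 FPKM in MEF, 28.6 at day 12, and 9.9 and 6.17 at day 16. Without MEF replicate 2 the list had 15 members higher, and without replicate 1 it had 1. Neurofilament genes were up: Nefl was at 0.137 and 0.0851 FPKM in MEF, 17.1 at day 12, and 5.17 and 44.2 at day 16, a change of 3.95 ± 0.69 (adjusted p = 0.000421), and Nefm at 0.458 and 0.194 FPKM in MEF, 24.6 at day 12, and 7.44 and 33.6 at day 16, a change of 3.89 ± 0.51 (adjusted p = 2.97e-05). Of 30 neuronal and glial genes 15 were tested, 8 rose and 3 fell, and the defining markers Dcx, Rbfox3 and Snap25 did not pass the filter on low values.

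Alpl, alkaline phosphatase of bone, liver and pluripotent cells, was at 0.214 and 0.165 FPKM in MEF, 39.8 at day 12, and 33 and 32.1 at day 16, a change of 4.91 ± 0.26 (adjusted p = 1.74e-09), while the cartilage genes Acan and Col2a1 fell by 1.43 ± 0.20 (adjusted p = 5.55e-05) and 2.44 ± 0.49 (adjusted p = 0.00122). Gpx2, a glutathione peroxidase of epithelia, was at 0.0702 and 0 FPKM in MEF, 2025 at day 12, and 1427 and 110.3 at day 16, so that the day 16 replicates were far apart. Clu (clusterin), a secreted chaperone, was highest at day 12, at 1.5 and 4.16 FPKM in MEF, 1434 at day 12, and 639 and 326 at day 16, a change of 7.54 ± 0.56 (adjusted p = 9.57e-08).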
